A study of Mus musculus with 8 samples.

Results

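The 9 genes described here encode parts of the basement membrane of the lung. They are the laminin chains Lama2, Lama3, Lama4, Lama5, Lamb1 and Lamc1, the nidogens Nid1 and Nid2, and perlecan (Hspg2). Members were the probe sets annotated to 1 of these symbols alone, which gave 20 probe sets among 45037. A probe set is the group of short oligonucleotides that reads 1 transcript region on an Affymetrix array. Of the 20, 17 were bright enough to be tested, and all 9 genes were among the 12856 genes tested.

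The tissue was lung of 8 FVB/N mouse pups, with 1 array of total lung RNA per pup. The 4 pups called cases were D04, D34, D48 and D52, and the 4 called controls were D02, D40, D50 and D58. Both groups carry the same genotype entry, an inducible FGF18 transgene aimed at the lung and written SP-C-rtTA and (teto)7-FGF18. Here the surfactant protein C promoter, which is active in the distal epithelium and not in the mesenchyme or vessels, drives the transactivator rtTA, and rtTA acts on tet operator sites in front of FGF18. The design text speaks of single against double transgenic littermates in pairs from 4 litters, chosen for transgene induction. Neither the pairs nor the age or treatment of each pup is given in the sources used here, and nothing beyond the litters describes how separate the samples are.

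A basement membrane is a thin matrix sheet under epithelium and endothelium and around muscle cells. Laminin trimers, each of an alpha, a beta and a gamma chain, polymerise on the cell surface through receptors such as integrins and dystroglycan, and type IV collagen forms a second network. Nidogens and perlecan join the 2 networks. In the lung, alveolar epithelium and capillary endothelium come to share a fused membrane, and loss of laminin alpha5 or of the nidogen binding site in laminin gamma1 disturbs lung development in mice.

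Fgf18 itself, which checks the labels, had a log2 intensity of 10.82, 12.09, 9.82 and 7.66 in cases D04, D34, D48 and D52, against 7.05, 7.76, 7.11 and 7.07 in the controls D02, D40, D50 and D58. The library labelled Case D52 therefore lay within the control range, and the counts below are also given without it. Tissue identity was checked on 11 markers of lung epithelium, all above the intensity limit. The surfactant gene Sftpc averaged 14.59 ± 0.03 log2 in cases and 14.56 ± 0.07 in controls (SD, n = 4 each). The arrays had medians of 7.02 to 7.12 log2, and having 4 per group limits the precision. Values below are log2 intensities unless they are called a difference, which is case minus control.

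No laminin, nidogen or perlecan gene passed the test of case against control lungs. Differences ran from -0.19 for Lama5 to 0.21 for Lama2, and the 95% interval of each of the 9 genes lay within 0.55 log2 of 0, which holds for 92.2% of all genes tested. Under limma with Benjamini-Hochberg adjustment over all genes, 0 of the 9 passed an adjusted p of 0.05, where 0.00778% of all genes did (1 gene, the lipid transporter Abca3). At an unadjusted p under 0.05 the count was also 0 of 9, where 6.29% of all genes passed, though Lama5 or Lamc1 passed it under some other settings. The median difference of the 9 genes was 0.0070, beside -0.013 over all genes. In 7 of the 9 the difference was smaller than 0.1 log2, as it was in 63.4% of all genes, and 6 of 9 lay above 0, as did 45.0% of all genes. Without the library labelled Case D52, the counts at an adjusted and at an unadjusted p under 0.05 were again 0 and 0, where 0.0467% and 12.7% of all genes passed.

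**Figure D1:**
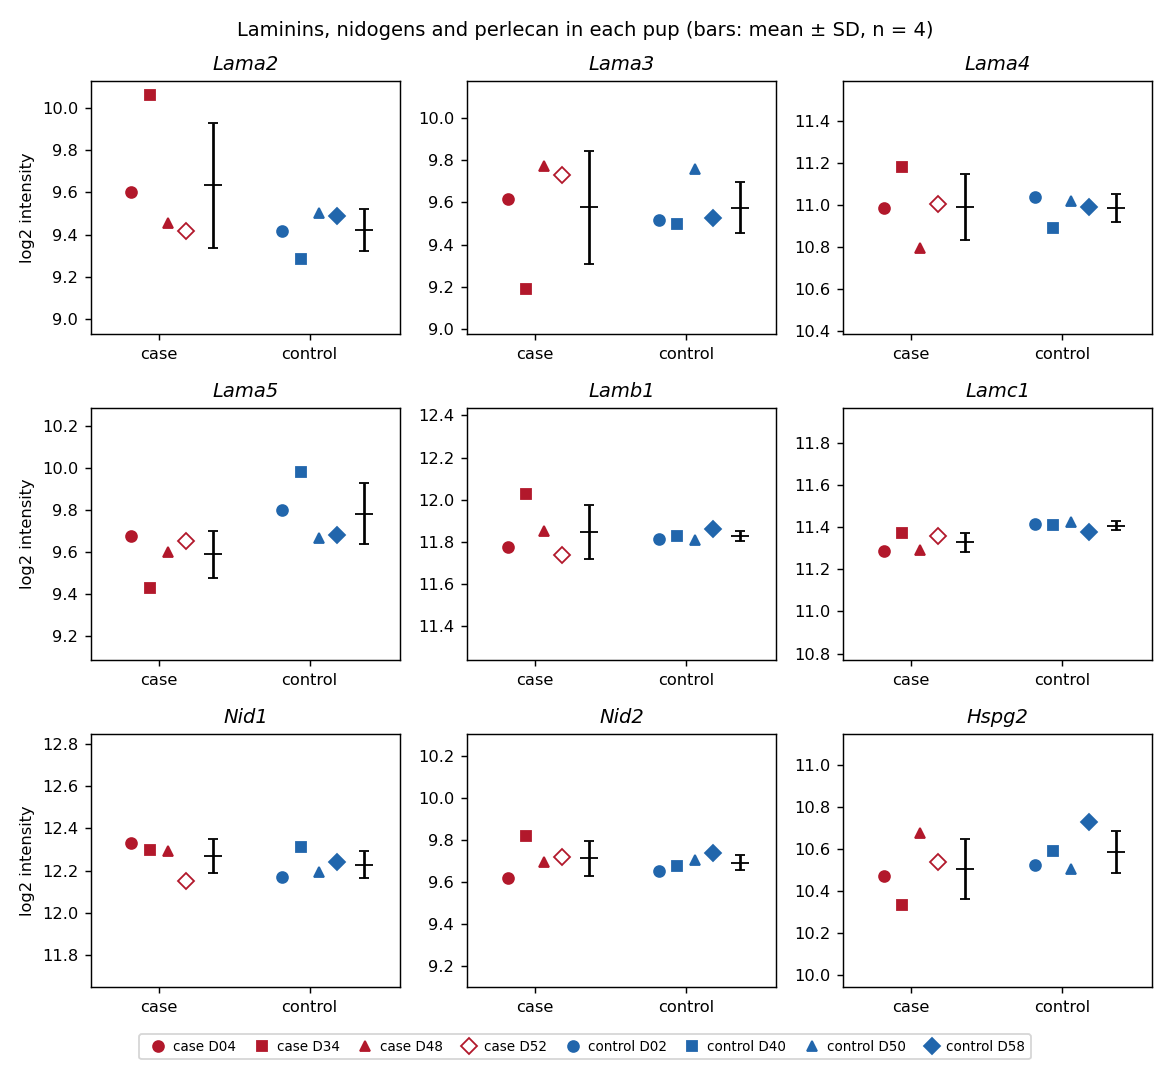
Log2 intensity (y axis) of the probe set kept for each of the 9 genes in the 4 case pups (red, left) and the 4 control pups (blue, right), with the mean and SD beside each group (n = 4); each panel spans the same log2 range, and the hollow diamond is the library labelled Case D52. The groups overlap in every panel except Lamc1, where cases read 11.29 to 11.37 and controls 11.38 to 11.43, and case D34 is the highest or lowest pup in 7 of the 9 panels.

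The 2 alpha chains with the widest differences had opposite signs, and the sequences before their starts are shown because these are the members furthest apart in the comparison. The windows are the 250 bases upstream of the annotated start in RefSeq (build GRCm38.p6), written 5′ to 3′ on the gene's strand, and capitals mark the GC box GGGCGG or its reverse complement. Lama5 is read from the minus strand at chr2:180225860-180226109, and Lama2 from the minus strand at chr10:27616943-27617192.
Lama5: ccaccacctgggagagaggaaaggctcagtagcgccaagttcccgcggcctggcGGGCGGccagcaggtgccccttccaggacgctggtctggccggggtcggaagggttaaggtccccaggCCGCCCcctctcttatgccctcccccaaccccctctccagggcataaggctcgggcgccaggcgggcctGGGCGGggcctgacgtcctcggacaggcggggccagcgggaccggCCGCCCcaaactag
Lama2: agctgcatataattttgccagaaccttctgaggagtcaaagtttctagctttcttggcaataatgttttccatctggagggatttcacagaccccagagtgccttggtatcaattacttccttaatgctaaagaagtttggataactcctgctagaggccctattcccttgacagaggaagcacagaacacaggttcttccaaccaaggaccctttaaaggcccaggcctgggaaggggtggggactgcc

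The Lama5 window held 4 GC boxes and 19 CpG dinucleotides at 72.4% G and C. The Lama2 window held 0 GC boxes and 0 CpG dinucleotides at 47.2% G and C. A link between base composition and the sign of a difference was not tested. Windows were found for 5 of the 9 genes. The others were Hspg2 with 5 GC boxes and 20 CpG, Lamb1 with 2 and 14, and Nid1 with 1 and 16. Of these, Lamb1 and Nid1 had differences above 0, as Lama2 did, and Hspg2 had one below 0, as Lama5 did. None of the 5 differences passed the test, and the sign of Lamb1 was not stable, at 0.019 with all pups and -0.040 without D34. Over all 32851 windows searched, 32.7% held a GC box on either strand and the median number of CpG was 6. The TATA box TATAAA, searched on both strands, was in 0 of the 5 and in 12.4% of all windows, and CCAAT was in Lamb1 and Nid1 and in 33.8% of all windows. A match in these letters is a description and not a binding site.

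Lama2 encodes the alpha2 chain, the chain of muscle and peripheral nerve laminins that is lost in merosin-deficient muscular dystrophy. Its log2 intensity was 9.60, 10.06, 9.46 and 9.42 in cases D04, D34, D48 and D52, against 9.42, 9.28, 9.50 and 9.49 in the controls D02, D40, D50 and D58. Case D34 stood above all other pups, D04 came next, and the other 2 cases fell inside the control range. The difference was 0.21 (SE 0.13, 95% interval -0.08 to 0.51), which is 1.16-fold, and it did not pass (limma adjusted p = 0.736). It rested on D34: without that pup it was 0.070 (limma adjusted p = 0.922).

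Lama5 encodes the alpha5 chain, the most widespread alpha chain of developing and adult epithelial and vascular basement membranes. The brightest of its 3 probe sets read 9.68, 9.43, 9.60 and 9.65 in cases D04, D34, D48 and D52, against 9.80, 9.98, 9.67 and 9.68 in the controls D02, D40, D50 and D58. All 4 cases lay below the control mean, and the groups overlapped at the edge, with case D04 at the level of controls D50 and D58. The difference was -0.19 (SE 0.089, 95% interval -0.39 to 0.01), 0.876-fold, and did not pass (limma adjusted p = 0.736), though its unadjusted p was the smallest of the 9. Without control D40 it was -0.125. The second tested probe set differed by -0.11 (limma adjusted p = 0.803), again with 4 of 4 cases below the control mean and with D34 the lowest and control D40 the highest of the 8 pups. Its name ends in _s_at, which marks probes that may match transcripts of more than 1 gene.

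Lama3 encodes the alpha3 chain of the epithelial laminins, including that of the hemidesmosome. It read 9.61, 9.19, 9.77 and 9.73 in cases D04, D34, D48 and D52, against 9.52, 9.50, 9.76 and 9.53 in the controls D02, D40, D50 and D58. D34 was the lowest of all pups while D48 and D52 were at the level of the highest control, D50. The means were 9.58 ± 0.27 in cases and 9.58 ± 0.12 in controls (SD, n = 4 each), a difference of 0.0020 (95% interval -0.28 to 0.28). The difference was 0.13 without D34.

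Lama4 encodes the alpha4 chain of endothelial, smooth muscle and other mesenchymal basement membranes. It read 10.99, 11.18, 10.80 and 11.00 in cases D04, D34, D48 and D52, against 11.04, 10.89, 11.02 and 10.99 in the controls D02, D40, D50 and D58. The cases held both the highest pup, D34, and the lowest, D48, and the difference was 0.0070 (95% interval -0.18 to 0.20). At the dimmer second probe set D34 was again the highest at 8.26, and D04 was the lowest at 7.43, outside the control range of 7.75 to 7.87 on either side. Case D48, at 7.67, also lay below that range. The probe set differed by -0.025, and by -0.18 without D34 (limma adjusted p = 0.959).

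The beta1 and gamma1 chains are the partners shared by most laminins of the lung. Lamb1 read 11.78, 12.03, 11.85 and 11.74 in cases D04, D34, D48 and D52, against 11.81, 11.83, 11.81 and 11.86 in the controls D02, D40, D50 and D58, at a probe set whose name ends in _s_at. D34 was above all controls and both D04 and D52 were below all of them, and the SD was 0.13 in cases and 0.02 in controls. The difference was 0.019 (95% interval -0.14 to 0.18). The other 2 tested Lamb1 probe sets differed by 0.11 and 0.16 (limma adjusted p = 0.823 and 0.803), and D34 was the highest pup at both. All 3 were above 0, but without D34 the first was -0.040 and the others 0.047 and 0.048.

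Lamc1 encodes the gamma1 chain, which carries the nidogen binding site. It read 11.29, 11.37, 11.29 and 11.36 in cases D04, D34, D48 and D52, against 11.42, 11.41, 11.43 and 11.38 in the controls D02, D40, D50 and D58. Every case lay below every control, which was so for 1 of the 9 genes and for 2.57% of all genes. The gap was small: the lowest control, D58, and the highest case, D34, read 11.38 and 11.37. The difference was -0.080 (SE 0.056, 95% interval -0.20 to 0.04), 0.946-fold, and did not pass (limma adjusted p = 0.745). The second Lamc1 probe set read 8.40 to 8.65 in cases and 8.47 to 8.65 in controls, so the groups overlapped there and the difference was -0.022.

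Nidogens bind laminin gamma1 and type IV collagen. Nid1, by its brightest probe set, read 12.33, 12.30, 12.29 and 12.15 in cases D04, D34, D48 and D52, against 12.17, 12.31, 12.19 and 12.24 in the controls D02, D40, D50 and D58. Cases D04, D34 and D48 lay at the upper end next to control D40, and D52 was the lowest of all pups. The difference was 0.039 (95% interval -0.11 to 0.19), with 0.018 without D04 and 0.078 without D52. The other 2 Nid1 probe sets differed by 0.21 and 0.12 (limma adjusted p = 0.789 and 0.839), and D34 was the highest pup at both, with 8.06 and 10.24. Without D34 these differences were 0.075 and 0.039. Nid2 read 9.62, 9.82, 9.70 and 9.72 in cases D04, D34, D48 and D52, against 9.65, 9.67, 9.70 and 9.74 in the controls D02, D40, D50 and D58. D34 was the highest and D04 the lowest pup, and the difference was 0.020 (95% interval -0.12 to 0.16), which is a fold between 0.920 and 1.12.

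Perlecan, the heparan sulfate proteoglycan encoded by Hspg2, binds growth factors of the FGF family as well as laminin and nidogen. Its brighter probe set, with a name ending in _s_at, read 10.47, 10.33, 10.68 and 10.54 in cases D04, D34, D48 and D52, against 10.52, 10.59, 10.51 and 10.73 in the controls D02, D40, D50 and D58. D34 was the lowest pup, D04 lay just below the lowest control, D50, and the other 2 cases lay within the control range. The difference was -0.081 (95% interval -0.27 to 0.11). It was -0.024 without D34, -0.035 without control D58 and -0.138 without D48. At the second probe set D48 was the lowest of all pups with 8.59, while the other 3 cases read 9.14 to 9.24 and the highest control 9.21, and the difference was -0.11.

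**Figure D2:**
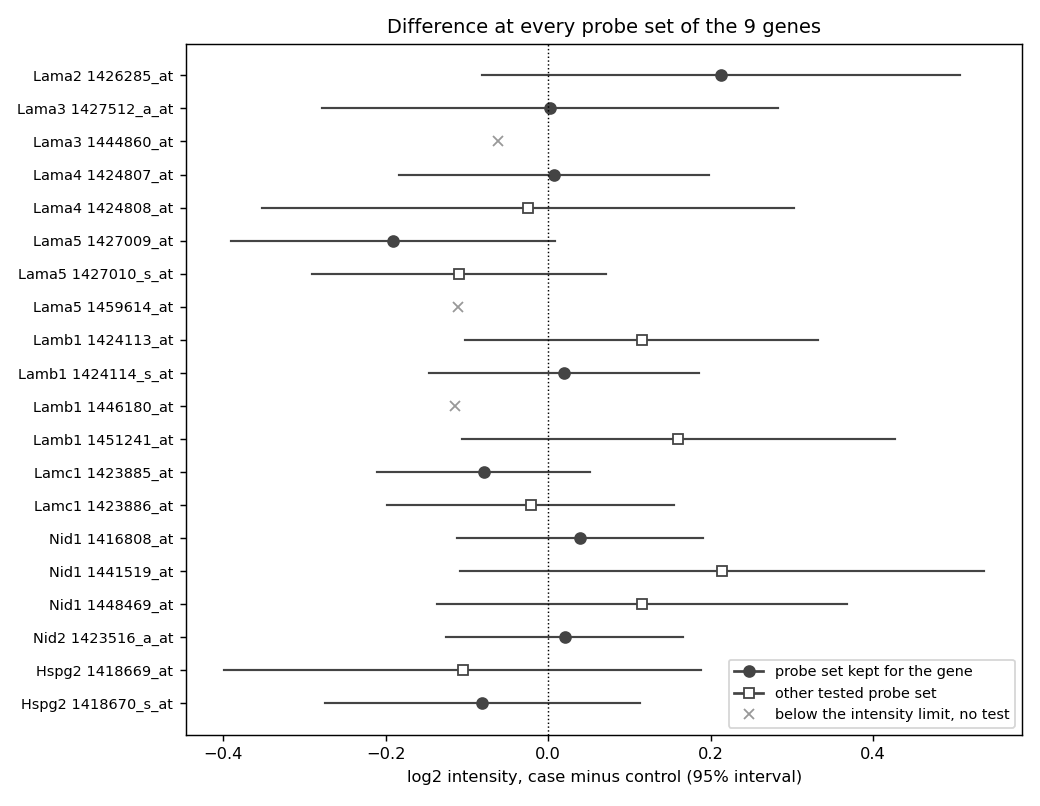
Difference in log2 intensity, case minus control (x axis), at each of the 20 probe sets of the 9 genes, with 95% intervals from limma for the 17 tested; filled circles are the probe sets kept for the genes, open squares the other tested ones and crosses the 3 below the intensity limit. Every interval includes 0, and the bound furthest from 0 is that of Nid1 1441519_at, at 0.54.

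Tested one by one among 27022 probe sets, 0 of the 17 passed an adjusted p of 0.05, where 0.0074% of all probe sets did, and 0 passed an unadjusted p under 0.05, where 5.96% did. Without the library labelled Case D52 the counts were 0 and 1, where 0.0555% and 11.5% of all probe sets passed, and the 1 was Nid1 1441519_at with a difference of 0.33 (limma adjusted p = 0.386). The groups did not overlap at 1 of the 17, where that held for 3.73% of all. Among the 6 genes with several tested probe sets, the signs were alike within 5, and in Lama4 they differed, at 0.0070 and -0.025. The 3 probe sets below the limit of 6.51 log2 had no test. They read 4.86 to 5.36 in cases and 5.04 to 5.31 in controls for Lama3, 5.47 to 5.77 and 5.38 to 5.88 for Lama5, and 5.23 to 5.35 and 5.18 to 5.56 for Lamb1.

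Pup by pup, the spread of the 9 genes lay mainly among the cases. The SD was larger in cases than in controls for 8 of the 9 genes, with Lama5 the exception, and for 67.4% of all genes. Its median over the 9 was 0.13 in cases and 0.07 in controls, and over all genes it was 0.13 in cases and 0.10 in controls. Case D34, the pup with the most Fgf18, was the highest of the 8 at 10 of the 17 tested probe sets and the lowest at 4, where over all probe sets it was the highest at 23.3% and the lowest at 26.3%. Probe sets of 1 gene share their transcript, so the 17 are not independent. In D34 the deviations from the control mean ran from -0.39 for Lama3 to 0.64 for Lama2. In D04 they ran from -0.12 for Lamc1 to 0.18 for Lama2, in D48 from -0.19 for Lama4 to 0.20 for Lama3, and in the library labelled Case D52 from -0.13 for Lama5 to 0.16 for Lama3. In controls they lay between -0.14 and 0.20, with both ends in D40.

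**Figure D3:**
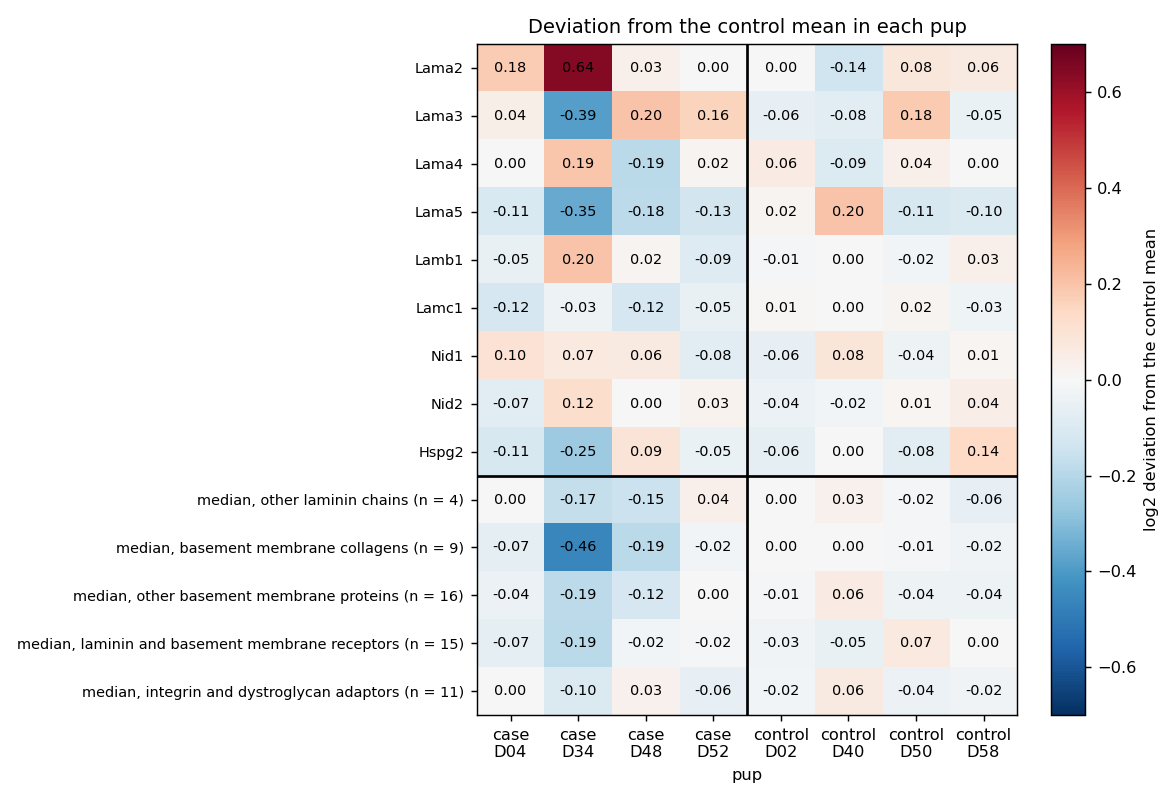
Log2 deviation from the control mean in each pup (columns, cases left of controls) for the 9 genes (upper rows) and as the median of 5 related lists (lower rows, n genes each); red is higher and blue lower. D34 holds the strongest colours in both directions, from 0.64 for Lama2 to -0.39 for Lama3, and reads -0.46 for the basement membrane collagens.

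Related genes came from 5 lists chosen with earlier results of these data known, and none of their 55 tested members passed the adjusted threshold. Of the other laminin chains, 4 were tested, with a median difference of -0.05 and 1 above 0. Lamb3, the beta3 chain that pairs with alpha3 in epithelial laminin, read 9.17 ± 0.06 in cases and 9.02 ± 0.08 in controls (SD, n = 4 each), a difference of 0.15 (limma adjusted p = 0.736). It was the 1 gene of the 5 lists under an unadjusted p of 0.05, and it was not under it without the library labelled Case D52. Lamb2, the beta2 chain of the neuromuscular junction, kidney and vessels, differed by -0.22, Lamc3 by -0.10 and Lama1 by -0.0040. For Lamb2, control D40 stood apart at 9.54, with the other controls at 8.88 to 9.01 and the cases at 8.76 to 8.92.

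Collagens of the basement membrane had lower means in cases, with 9 of 9 tested genes below 0 and a median of -0.17, where 55.0% of all genes lay below 0, but 0 passed (0 also at an unadjusted p under 0.05). Without D34, 8 of 9 lay below 0 and the median was -0.089. Their median deviation was -0.07, -0.46, -0.19 and -0.02 in cases D04, D34, D48 and D52, and -0.02 to 0.00 in controls, so D34 carried the largest value and D52 read like controls. In the same pup D34 the median of the laminins, nidogens and perlecan was 0.07. Col4a5, a chain of the collagen IV network whose loss causes Alport syndrome, read 10.57, 10.14, 10.52 and 10.71 in cases D04, D34, D48 and D52, against 10.75, 10.68, 10.72 and 10.78 in the controls D02, D40, D50 and D58. It differed by -0.25 (limma adjusted p = 0.736). Col4a2 differed by -0.13, Col18a1, the source of endostatin, by -0.19, and Col7a1, the anchoring fibril collagen, by -0.17. In Col7a1 alone of this list every case lay below every control, as in 2.57% of all genes. Without the library labelled Case D52 the median of the list was -0.20, and 4 of 9 were under an unadjusted p of 0.05 and 0 under an adjusted one, where 12.7% and 0.0467% of all genes were.

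Among 16 other basement membrane proteins, 13 lay below 0, with a median of -0.08. Peroxidasin (Pxdn), which crosslinks collagen IV, differed by -0.12, the collagen-binding protein Sparc by -0.14, Frem2, a partner of Fras1, by -0.27 and Ecm1 by -0.23. The 15 receptors for laminin and other basement membrane proteins had a median of -0.05 with 10 below 0. The collagen receptor Ddr1 differed by -0.25, the laminin-binding integrin chain Itga3 by -0.27, the collagen-binding integrin chain Itga2 by -0.16, and dystroglycan (Dag1), which links laminin to dystrophin, by -0.14. The 11 adaptors had a median of -0.06 with 7 below 0. Dystrophin (Dmd) read 8.46, 7.79, 8.95 and 8.94 in cases D04, D34, D48 and D52, against 9.04, 8.75, 9.17 and 9.26 in the controls D02, D40, D50 and D58, a difference of -0.52 (limma adjusted p = 0.736) that was -0.28 without D34. Its relative utrophin (Utrn) differed by -0.07, and Lims1 and the kindlin Fermt2, which act with integrin-linked kinase, by 0.12 and 0.08. Of the 20 related genes named from the 5 lists, 13 had a difference over 1.5 times smaller, or in 1 of them of the other sign, without D34. Without that pup Itga3 differed by -0.086, Frem2 by -0.097 and Ecm1 by -0.10. The 20 were picked by smallest p per list and no such count was made over all genes, so it cannot be read as a trait of these lists. Over all probe sets D34 was the highest of the 8 pups at 23.3% and the lowest at 26.3%.

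**Figure D4:**
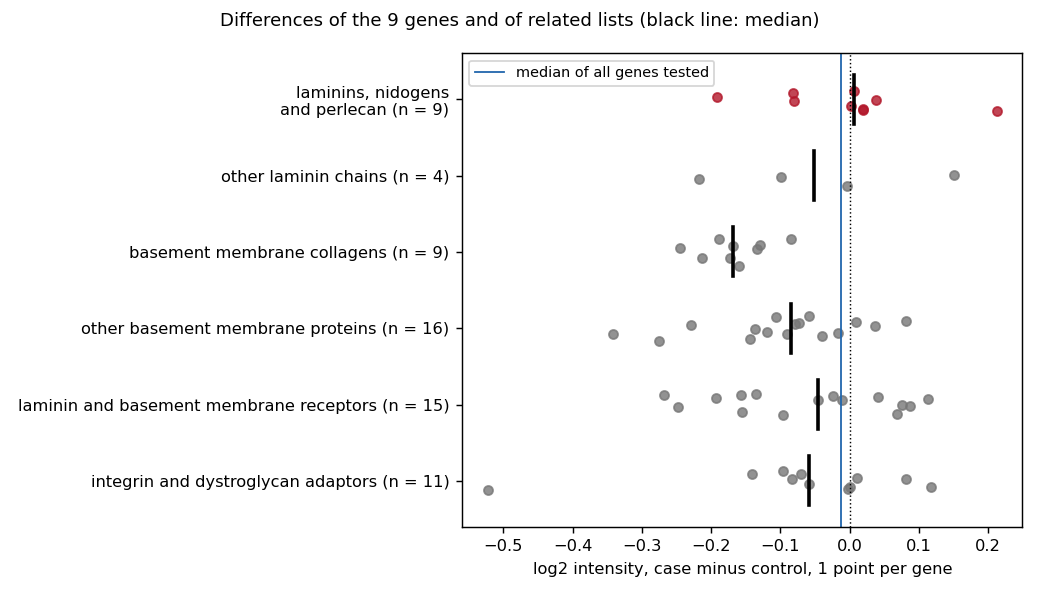
Difference in log2 intensity, case minus control (x axis), of each of the 9 genes (red) and of each tested gene of 5 related lists (grey), with the median of each group as a black line and the median of all genes, -0.013, in blue. The 9 genes centre on 0.0070, and all 9 basement membrane collagens lie left of 0, with a median of -0.17.

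Markers of cells that lay down these chains differed between pups, most in D34, and their part in the values above was not tested. For smooth muscle, fibroblast and lung epithelium markers other cases also lay outside the control range. For vascular endothelium only D34 did. In bulk lung, fewer cells of a type and less RNA per cell cannot be told apart. Smooth muscle and pericyte markers had 10 of 10 genes tested and a median deviation of -0.39, -0.65, -0.15 and -0.10 in cases D04, D34, D48 and D52, against -0.08 to 0.07 in controls. Their summed intensity was 15638 to 22290 in cases and 23191 to 24363 in controls. All 10 had differences below 0, as did 55.0% of all genes, and without D34 the 10 were still below 0, with a median difference of -0.22. At an unadjusted limma p under 0.05 the count was 7 of 10, beside 6.29% of all genes, and 0 passed the adjusted threshold. Without the library labelled Case D52 these counts were 8 of 10 and 0, beside 12.7% and 0.0467% of all genes. For vascular endothelium, with 9 of 9 tested, the median deviations were -0.01, -0.30, -0.05 and -0.04 in cases D04, D34, D48 and D52, against -0.10 to 0.06 in controls. The sums were 22303 to 28875 in cases and 26289 to 29018 in controls. The median difference of this list was -0.052, and 0.014 without D34, and 0 of 9 were under an unadjusted limma p of 0.05. For lung epithelium the median deviations were -0.09, -0.30, -0.11 and -0.03, against -0.03 to 0.05 in controls, with sums of 65143 to 69441 in cases and 70650 to 74593 in controls. The median difference of the epithelial list was -0.17, and -0.060 without D34. Of its 11 genes, 1 was under an unadjusted limma p of 0.05, which was Abca3. Fibroblast markers read -0.29, -0.49, -0.22 and -0.02 in D04, D34, D48 and D52, against -0.05 to 0.09 in controls, with 9 of 9 tested and sums of 43542 to 53117 in cases and 51470 to 57965 in controls. Their median difference was -0.24, and -0.17 without D34. Of the 9, 6 were under an unadjusted limma p of 0.05, beside 6.29% of all genes, and 0 under an adjusted one. Without the library labelled Case D52 these counts were 8 and 1, beside 12.7% and 0.0467% of all genes. The 9 did not run alike: D34 was the lowest pup for 7 of them and the highest for Pdgfra and Tcf21, and Pdgfra read 12.58 in D34, against 10.58 to 10.73 in controls.

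Markers of heart muscle, skeletal muscle and mesothelium were also unequal between pups, and the source of their RNA was not tested. Heart muscle markers, with 8 of 8 tested, had a median deviation of -0.69, -2.15, -0.44 and 0.30 in cases D04, D34, D48 and D52, against -0.19 to 0.33 in controls, and summed intensities of 4648 to 23791 in cases and 17887 to 24545 in controls. Skeletal muscle markers had 4 of 8 genes tested and read -0.33, -0.61, -0.41 and -0.01, against -0.17 to 0.38 in controls, with sums of 973 to 1786 in cases and 1587 to 2300 in controls. Mesothelium, with 6 of 6 tested, read -0.60, -1.18, -0.50 and 0.10, against -0.30 to 0.35 in controls, with sums of 1681 to 3483 in cases and 2762 to 4227 in controls. D34 had the lowest median in all 3 lists. None of these markers was at 0, since an array gives every probe set some intensity.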

How the data were processed

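Total RNA of 8 lungs was hybridised to Affymetrix arrays, 1 per pup, per the labels. The deposited values are intensities on a linear scale, 1 per probe set and pup. The authors used the R package affy, per the submitters' processing notes. Summary of probes, background correction and normalization were not given in the sources used here. A further column deposited by the authors is a log2 ratio, equal to log2 of D04 over D02 for 45101 of 45101 probe sets within 1e-06, and was used as a check only. Both deposited tables hold the same intensities.

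Pups were grouped by title. Values were taken to log2. Affymetrix controls (64) and probe sets under the 40th percentile of mean log2 intensity (6.51) were left out, and each gene was read from its brightest probe set with 1 symbol in the platform annotation (34945 probe sets have 1 symbol, 932 several and 9160 none). The 2 groups were fitted in limma 3.58.1 (lmFit, eBayes; R 4.3.3). P-values were adjusted by Benjamini-Hochberg across 12856 genes or 27022 probe sets, without a litter block, since pairs are not labelled. Fgf18 was compared by an exact permutation test, given under the dependence on processing. P-values measure the spread between these pups. The fit was tested on simulated data. Members, lists and tests were chosen with earlier results of these data known. Named genes are the members, Fgf18, genes past the threshold and, per related list, the 4 with the smallest p; the markers Sftpc, Pdgfra and Tcf21 were added after their values were seen. The 5 related lists hold 60 genes, of which 58 have a probe set. Marker lists for nerve, cartilage, red blood cells and leukocytes had medians of -0.27, 0.09, -0.34 and -0.16. These rest on 2 of 6, 2 of 6, 3 of 6 and 5 of 7 genes tested, and the 2 of cartilage had opposite signs (Col2a1 0.29, Col9a1 -0.12). Alternatives changed the filter, normalization, choice of probe set, moderation, array weights, sex covariate, pair block and pups.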

Additional observations from a re-analysis of the deposited data

Results flagged for a closer look

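In 4 of the 40 groups of 4 pups (20 probe sets, 2 groups each), 1 pup lay apart from the rest. Its gap to the nearest pup took more of the group's range than Dixon's 95% limit allows, where chance gives about 1 in 20 groups. The same count was not made over all probe sets, and probe sets of 1 gene are not independent. The 4 therefore cannot be read as a trait of these genes. At the Lamb1 probe set 1451241_at, case D34 read 9.95 with the next case at 9.52 (gap 0.879 of the range). At the same probe set control D40 read 9.21 with the next control at 9.51 (gap 0.883). At Hspg2 1418669_at, case D48 read 8.59 with the next case at 9.14 (gap 0.837). At Lama3 1427512_a_at, control D50 read 9.76 with the next control at 9.53 (gap 0.881).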

How the results depend on the processing

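Under every alternative run, 0 of the 9 genes and 0 of the 55 genes of the related lists passed the adjusted threshold, as did 0 of the 17 tested probe sets in the alternatives run on probe sets, which hold no pair block; over 189 values of the 9 genes the smallest limma adjusted p was 0.160 (Lamc1 with array weights). An unadjusted p under 0.05 was met by 6 of the 189: Lama5 with quantile normalization, without D50, without D58 and in the lowest p of either pair block, and Lamc1 with array weights. In 7 of the 21 settings the differences cannot move by construction; of the 126 values in the other 14, 108 kept their direction and 18 changed sign, all in genes whose main difference was at most 0.020. Lama5 was -0.077 and Lama2 0.13 with array weights, and Lamc1 was -0.030 and Hspg2 -0.031 with arrays centred on the median. With quantile normalization Lama3 read -0.011 and Lama4 -0.00076. Lama4 read -0.0090 with the mean of its probe sets, -0.025 with its most variable one, -0.027 with array weights and -0.027 with sex as a covariate, and array weights gave -0.037 for Lamb1 and -0.048 for Nid2. Leaving out each pup in turn, Lama3 ran from -0.064 to 0.13, Lama4 from -0.056 to 0.072, Lamb1 from -0.040 to 0.056 and Nid2 from -0.015 to 0.051. Among other probe sets, Lama4 1424808_at ran from -0.18 to 0.10, Lamc1 1423886_at from -0.058 to 0.028 and Hspg2 1418669_at from -0.18 to 0.041, and with arrays centred on the median the first was 0.025 and the second 0.028. The median of the 9 genes (0.0070) was 0.057 with arrays centred on the median, -0.037 with array weights and -0.024 to 0.019 with each pup left out. It was -0.024 without D34 and -0.024 without control D40.

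Over all genes the count passing was 1, and it was 0 with the mean of probe sets, 16 with array weights, 2 with sex as a covariate, and 0 to 6 with each pup left out, where 6 is without the library labelled Case D52 and 0 without D02, D40, D58, D04 or D48. Over all probe sets it was 2, with 5 under array weights, 4 with sex and 0 to 15 with each pup left out, 15 without the library labelled Case D52. The labels pair no pups: a block for pairs gave 0 to 2 genes over 24 pairings, and 0 to 2 over the 6 pairing D02 with D04. The cause of these changes was not tested. Fgf18 differed by 2.85 (two-sided exact permutation p = 0.0571 over 70 arrangements), and by 2.18 to 3.66 with each pup left out. Without the library labelled Case D52 it differed by 3.66 (exact permutation p = 0.0286, the smallest that 35 arrangements allow). Pups were chosen for transgene induction, and that library was picked out for its low Fgf18, so each p is a description and not a finding. Depth does not apply to arrays; 3 of 20 probe sets were too dim to test.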

Other observations

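Within an array, the log2 intensity of Lama2 minus that of Lama5 was -0.07, 0.63, -0.15 and -0.24 in cases D04, D34, D48 and D52, against -0.38, -0.70, -0.17 and -0.19 in the controls D02, D40, D50 and D58. D34 stood highest and control D40 lowest, and the library labelled Case D52 lay within the control range. The pair was chosen after its values were seen, so no test is given, and neither gene passed the test. Since the probe sets differ, only the difference between pups can be read, not the level of one chain against the other.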
